A study of Mus musculus with 15 samples.

Results

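Metallothioneins and target genes of the transcription factor NRF2 were followed in mouse embryonic fibroblasts (MEFs), connective tissue cells cultured from embryos, with whole-transcript exon arrays (Affymetrix Mouse Exon 1.0 ST). The list named 10 genes: the metallothioneins Mt1 and Mt2, the NRF2 targets Nqo1, Hmox1, Gclm, Gclc, Txnrd1, Srxn1 and Gsr, and Txnip, the thioredoxin-binding protein. A gene was kept where a probe row of the deposited table carried its symbol alone. Of the 10 genes 8 had such a row, with 1 row each, out of 14860 genes with a row of their own. The row of Gclm also carried Ppia and that of Txnrd1 also carried 1700028I16Rik, so neither gene was read.

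The study asked which transcripts depend on Mta1, which belongs to NuRD, a complex that remodels chromatin and removes acetyl groups from histones, with and without P53. All MEFs came from C57BL/6J mice, and each of the 5 groups had 3 arrays. WT MEFs carried no engineered allele in the labels, Mta1-KO MEFs were homozygous for the Mta1 knockout, and Mta1-KO/Mta1 MEFs were the knockout cells with Mta1 put back by transfection. These 3 groups came from embryos of day 9.0. P53-KO MEFs were homozygous for the P53 knockout, and P53-KO/Mta1 MEFs were the same background with Mta1 over-expressed; both came from embryos of day 12.5, and the P53-KO MEFs were a gift of another laboratory. P53 status, embryo age and source therefore cannot be told apart in any comparison of a P53-KO group with WT. No array was labelled as a vector control, so added Mta1 and the transfection cannot be told apart either. The study calls the arrays of a group biological replicates, but no source used here says whether each had an embryo or culture of its own, so the p-values reflect only how far these arrays spread, and that spread may be technical.

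Each value is a log2 ratio to the median of its own row over the 15 arrays. A difference of 1 is therefore a fold of 2, and levels of different genes cannot be compared. In bulk RNA, fewer cells of a type and less RNA per cell cannot be told apart. The array medians lay between -0.0165 and 0.0231, and each of the 15 arrays had 2 arrays of its own group as its nearest neighbours over all 16755 rows. The Mta1 row was 1.09 lower in Mta1-KO than in WT on the log2 scale (adjusted p = 6.17e-09, limma). Re-expression did not raise it, with a difference of -0.17 to the knockout (adjusted p = 0.0669), and over-expression in P53-KO MEFs gave a difference of 0.27 (adjusted p = 0.00603). Where its probes lie against the deleted and the added sequence is unknown, so this row is no check of either. The study compared Mta1 protein between all groups on a Western blot, which was not read here. No row carried Trp53 alone.

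Metallothioneins are small, cysteine-rich proteins that bind zinc and copper and take up reactive oxygen species. Their genes are switched on by the zinc-sensing factor MTF1, which binds metal response elements, and they are among the most inducible genes of many mouse cells. NRF2, encoded by Nfe2l2, is held in the cytoplasm by KEAP1 and degraded. Oxidants and electrophiles release it, and with a small MAF partner it binds antioxidant response elements in front of genes that make glutathione, detoxify quinones and repair oxidized thiols. Txnip binds and inhibits thioredoxin and is known as a target of the glucose-sensing MondoA/MLX factors, which bind carbohydrate response elements.

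Mt1 and Mt2 lie next to each other on mouse chromosome 8 in the GRCm38.p6 build, Mt2 at chr8:94172618-94173567 and Mt1 at chr8:94178883-94180327, with 5315 bases between them. Nqo1 (chr8:107388225-107403205), Hmox1 (chr8:75093618-75100593) and Gsr (chr8:33653238-33698162) are on the same chromosome, whereas Gclc is at chr9:77754535-77794489, Srxn1 at chr2:152105524-152111376 and Txnip at chr3:96557957-96561857. RefSeq promoter sequences of this build, from 250 bases before to 50 after the start site, were at hand for 5 of the 8 genes, namely Mt1, Mt2, Nqo1, Srxn1 and Txnip. Of them 4 are shown, those whose windows held a match to the sequence cores named next. Capitals mark matches, on either strand, to the antioxidant response element core (TGACNNNGC, or TGAGNNNGC), the metal response element core (TGCACNC or TGCGCNC) and the carbohydrate response element. The start site is base 251 of each sequence, and all are on the plus strand.
Mt2, chr8:94172368-94172667: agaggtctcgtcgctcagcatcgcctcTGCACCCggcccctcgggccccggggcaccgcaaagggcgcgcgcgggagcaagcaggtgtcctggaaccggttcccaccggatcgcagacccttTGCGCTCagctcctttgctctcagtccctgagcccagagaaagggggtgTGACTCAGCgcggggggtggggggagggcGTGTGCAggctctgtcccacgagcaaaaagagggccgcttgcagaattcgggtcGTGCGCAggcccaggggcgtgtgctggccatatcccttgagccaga
Mt1, chr8:94178839-94179138: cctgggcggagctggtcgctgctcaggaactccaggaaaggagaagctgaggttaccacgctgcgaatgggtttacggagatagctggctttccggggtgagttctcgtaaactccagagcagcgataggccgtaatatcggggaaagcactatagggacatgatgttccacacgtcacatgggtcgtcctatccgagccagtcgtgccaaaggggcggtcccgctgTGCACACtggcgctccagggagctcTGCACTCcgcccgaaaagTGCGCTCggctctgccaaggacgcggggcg
Srxn1, chr2:152105274-152105573: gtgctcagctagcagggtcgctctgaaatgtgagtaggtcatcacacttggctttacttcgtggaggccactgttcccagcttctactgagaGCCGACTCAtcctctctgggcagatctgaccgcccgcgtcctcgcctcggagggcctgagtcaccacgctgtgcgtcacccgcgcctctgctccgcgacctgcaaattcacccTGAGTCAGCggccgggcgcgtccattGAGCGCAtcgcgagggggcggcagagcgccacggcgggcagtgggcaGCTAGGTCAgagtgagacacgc
Txnip, chr3:96557707-96558006: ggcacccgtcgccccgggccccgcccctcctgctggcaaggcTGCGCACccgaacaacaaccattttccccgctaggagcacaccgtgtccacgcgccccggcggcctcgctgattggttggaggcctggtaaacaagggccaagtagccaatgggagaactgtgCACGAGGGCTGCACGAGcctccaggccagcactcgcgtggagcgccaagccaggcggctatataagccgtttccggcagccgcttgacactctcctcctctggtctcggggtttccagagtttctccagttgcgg

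The Mt2 window held 4 matches to the metal response element core, whose first bases lay at -223, -128, -50 and +5 from the start site, and 1 antioxidant core at -79. The Mt1 window held 3 metal response element cores, at -23, +3 and +21, and no antioxidant core. The start site used for Mt1 lies 206 bases inside its gene record, so that the window reaches less far upstream of the record's first base than the others do. Positions count from the start site given with each promoter sequence, which was not checked against measured starts. Letters outside the windows were not read, so the lack of an antioxidant core in Mt1 holds for its window alone. At least 3 metal cores were found in 1.97% and at least 4 in 0.517% of the 32851 promoters of the same length, and at least 1 in 25.7%. Srxn1 held the antioxidant core TGACNNNGC at +29, and with TGAGNNNGC, which was added after the sequences had been seen, it held 3 antioxidant cores, at -158, -45 and +29. The narrower core was found in 12.4% of promoters and the wider pair in 27.8%, with 3 or more of the pair in 0.63%. Txnip held 1 carbohydrate response element, at -85, which 0.161% of promoters held, and both Txnip (at -208) and Srxn1 (at -19) held 1 metal core. The Nqo1 window held none of these letters. A match is a description of letters and not a measured site.

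The metallothioneins moved in opposite directions in the Mta1 knockout. Mt2, the first of the neighbouring pair, stood at 0.23, 0.00 and -0.58 in the WT arrays, at -2.75, -2.64 and -2.51 in the knockout and at -1.17, -0.46 and -0.35 after re-expression. Arrays of the P53-KO MEFs read 3.20, 3.51 and 3.28, and those with Mta1 over-expressed 3.33, 3.06 and 3.13. The Mta1-KO arrays were thus the lowest and did not overlap any other group, the arrays of both P53-KO groups were the highest and overlapped each other, and the Mta1-KO/Mta1 arrays reached into the range of WT. The group means of Mt2 spanned 5.97 log2 units, a 62.5-fold range, and its standard deviation over the 15 arrays was larger than that of 99% of all rows.

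Mt2 fell by 2.52 in Mta1-KO against WT on the log2 scale, a 5.73-fold decrease (standard error 0.208, adjusted p = 1.89e-07, limma with Benjamini-Hochberg adjustment). Mt2 then rose by 1.97, or 3.93-fold, from Mta1-KO to Mta1-KO/Mta1 (standard error 0.208, adjusted p = 9.62e-06). The difference that remained between Mta1-KO/Mta1 and WT was -0.54 (95% interval -0.99 to -0.10, adjusted p = 0.0537). In P53-KO MEFs the transcript was 3.45 higher than in WT, a 10.9-fold difference (adjusted p = 4.53e-09). Adding Mta1 there left a difference of -0.16 with an interval from -0.61 to 0.29 (adjusted p = 0.648). Under quantile normalization of the arrays this last difference turned to 0.75 (adjusted p = 0.0247), still under the minimum fold of 2.

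Mt1 had another order of groups. WT arrays read -1.64, -1.92 and -1.96, knockout arrays -0.36, -0.47 and -0.46 and re-expression arrays -0.06, 0.06 and 0.00. P53-KO MEFs read 0.05, 0.29 and 0.04 without and 0.01, 0.06 and 0.07 with added Mta1. The WT arrays lay apart below all others, Mta1-KO came next, and the remaining 3 groups overlapped. Mt1 rose by 1.41 in Mta1-KO against WT, or 2.65-fold (standard error 0.0829, adjusted p = 4.55e-09, limma). Mta1-KO/Mta1 was 0.43 above Mta1-KO (adjusted p = 0.0013), which is under the minimum fold, and 1.84 above WT (adjusted p = 2.94e-10). P53-KO exceeded WT by 1.97, a 3.91-fold rise (adjusted p = 1.19e-10), and over-expressed Mta1 left a difference of -0.08 (95% interval -0.26 to 0.10, adjusted p = 0.552). With quantile normalization the rise in Mta1-KO was 0.81, which no longer reached a fold of 2.

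**Figure D1:**
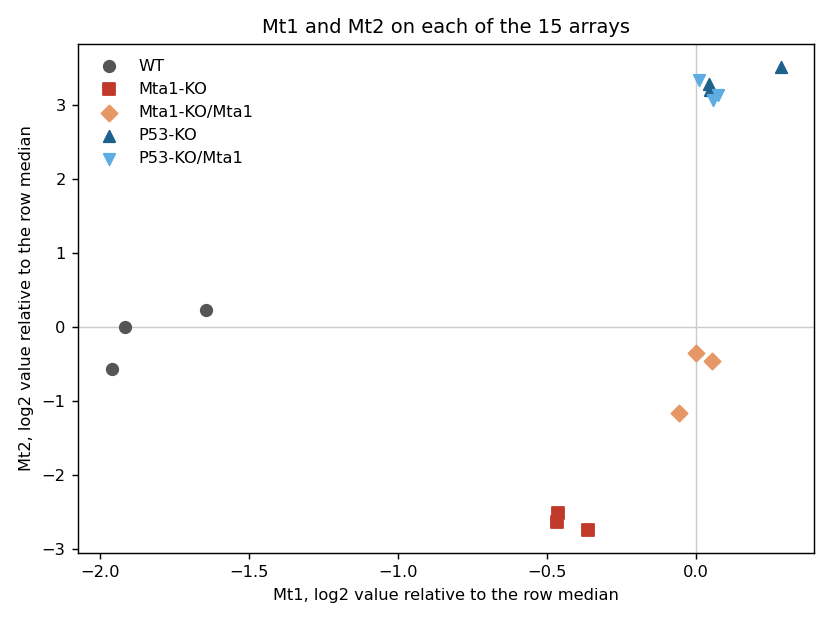
Each of the 15 arrays is plotted by its log2 value of Mt1 (x axis) and of Mt2 (y axis), both relative to the row's median, with a colour and symbol for each group. WT sits at the left near 0 on the Mt2 axis, Mta1-KO lies lowest, between -2.75 and -2.51 for Mt2, and both P53-KO groups lie highest, at 3.06 or above.

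Within an array, the change of Mt2 less the change of Mt1 was -3.93 from WT to Mta1-KO, 1.54 from Mta1-KO to Mta1-KO/Mta1 and 1.48 from WT to P53-KO. The exact two-sided permutation test on the 3 against 3 arrays gave p = 0.1 for each, which is the smallest value this design allows. With Mta1 over-expressed in P53-KO MEFs it was -0.08 (exact permutation p = 0.4). The first 2 of these comparisons share the Mta1-KO arrays. The paralogs are alike in sequence, and the sources used here do not say how far the probes of each row separate them.

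Nqo1 reduces quinones by a 2-electron step and is a standard readout of NRF2. It rose in Mta1-KO and fell back toward WT with re-expression, with arrays that overlapped those of WT. Values of 0.00, 0.12 and -0.12 in WT stood against 1.72, 1.65 and 1.71 in the knockout and -0.01, 0.27 and 0.23 after re-expression. P53-KO MEFs read -1.12, -0.74 and -1.23, or -0.34, -0.19 and 0.09 with added Mta1. Mta1-KO stood apart above and P53-KO apart below, while WT overlapped both groups with added Mta1. Nqo1 rose by 1.70 in Mta1-KO against WT, or 3.24-fold (standard error 0.127, adjusted p = 6.44e-08, limma). It fell by 1.53, or 2.89-fold, from Mta1-KO to Mta1-KO/Mta1 (adjusted p = 1.11e-06), which left 0.17 to WT (95% interval -0.11 to 0.44). In the P53-KO background the direction was the other: P53-KO/Mta1 was 0.89 above P53-KO (1.85-fold, adjusted p = 0.000112, under the minimum fold), and P53-KO was 1.03 below WT (2.04-fold, adjusted p = 7.2e-06). Without the second P53-KO array the first of these reached 1.03 and was called. The fall in P53-KO lost its call, at values from -0.98 to -0.93, when replicate 1 or 3 of P53-KO or replicate 2 of WT was left out, and it was -0.80 under quantile normalization.

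Hmox1 encodes heme oxygenase, which breaks heme down to biliverdin, iron and carbon monoxide. Its arrays read 0.46, 0.40 and 0.30 for WT, 0.00, -0.08 and 0.00 for the knockout, and -0.26, -0.16 and -0.22 for re-expression. Those of P53-KO MEFs read -0.74, -0.43 and -0.64, and over-expression of Mta1 gave 0.31, 0.23 and 0.43. WT and P53-KO/Mta1 overlapped at the top, and P53-KO lay apart at the bottom. P53-KO was 0.99 below WT (1.99-fold, adjusted p = 5.74e-08, limma), just under the minimum fold, and centring each array on its median moved it to -1.003 and made it a call, as did leaving out P53-KO replicate 2 (-1.08) or WT replicate 3 (-1.04). P53-KO/Mta1 was 0.93 above P53-KO (1.90-fold, adjusted p = 7.61e-07) and differed from WT by -0.06 (95% interval -0.23 to 0.10). Without the second P53-KO array the difference between the P53-KO groups was 1.02. Mta1-KO was 0.41 below WT (adjusted p = 0.000505), and Mta1-KO/Mta1 did not come back toward WT, at 0.60 below it (adjusted p = 1.94e-05).

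Gclc and Gsr supply and recycle glutathione. Gclc, the catalytic subunit of the enzyme that limits glutathione synthesis, read 0.14, 0.03 and 0.01 for WT, -0.01, 0.06 and 0.00 for the knockout and 0.38, 0.19 and 0.28 for re-expression. P53-KO MEFs read -1.67, -1.74 and -1.68, and with Mta1 -0.78, -0.81 and -0.80. Both P53-KO groups lay well below the other groups, with no overlap between them. Gclc fell by 1.75 in P53-KO against WT, or 3.37-fold (standard error 0.0548, adjusted p = 5.67e-12, limma). P53-KO/Mta1 was 0.90 above P53-KO (1.86-fold, adjusted p = 3.92e-08) and remained 0.86 below WT (adjusted p = 1.39e-08). Against these, Mta1-KO differed from WT by -0.04 (95% interval -0.16 to 0.08, adjusted p = 0.626).

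Gsr, which reduces oxidized glutathione, read 0.37, 0.28 and 0.36 for WT, -0.38, -0.43 and -0.43 for the knockout, and -0.25, -0.17 and -0.24 for re-expression. P53-KO MEFs read 0.06, -0.20 and 0.00, and over-expression gave 0.96, 0.80 and 0.89. The P53-KO/Mta1 arrays were the highest and those of Mta1-KO the lowest, without overlap with other groups. Mta1-KO was 0.75 below WT (1.68-fold, adjusted p = 3.33e-07) and P53-KO/Mta1 was 0.93 above P53-KO (1.91-fold, adjusted p = 1.46e-07), both under the minimum fold. Under quantile normalization the differences between P53-KO/Mta1 and P53-KO were 1.07 for Gclc and 1.10 for Gsr, and both were then called.

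Srxn1, the sulfiredoxin that restores overoxidized peroxiredoxins, varied least of the 8 genes. It read 0.09, 0.19 and 0.15 for WT, 0.28, 0.32 and 0.42 for the knockout and -0.06, 0.07 and 0.00 for re-expression. P53-KO MEFs read -0.03, -0.23 and -0.22, or -0.32, -0.11 and 0.00 with added Mta1. The group means lay within a 1.42-fold range, and 49% of all rows had a smaller standard deviation over the arrays. Mta1-KO differed from WT by 0.20 (adjusted p = 0.0572), and Mta1-KO/Mta1 was 0.34 below Mta1-KO (adjusted p = 0.00488). The difference between P53-KO/Mta1 and P53-KO was 0.02, with an interval from -0.15 to 0.19.

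Txnip was called in each of the 3 main comparisons. WT read -0.76, -0.67 and -0.74, the knockout 1.45, 1.52 and 1.44 and re-expression -0.10, 0.02 and 0.00. P53-KO MEFs read 0.74, 1.02 and 0.95, and the same cells with added Mta1 -1.23, -1.18 and -0.98. The 5 groups did not overlap, with Mta1-KO highest, P53-KO next and P53-KO/Mta1 lowest. Txnip rose by 2.19 in Mta1-KO against WT, a 4.58-fold increase (standard error 0.0774, adjusted p = 1.53e-11, limma). It fell by 1.50, or 2.83-fold, in Mta1-KO/Mta1 against Mta1-KO (adjusted p = 1.29e-08), which left it 0.69 above WT (adjusted p = 4.76e-06). In P53-KO it was 1.62 above WT (3.08-fold, adjusted p = 4.11e-10). With Mta1 over-expressed there it fell by 2.03, or 4.09-fold (adjusted p = 3.22e-10), to 0.41 below WT (adjusted p = 0.000496).

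**Figure D2:**
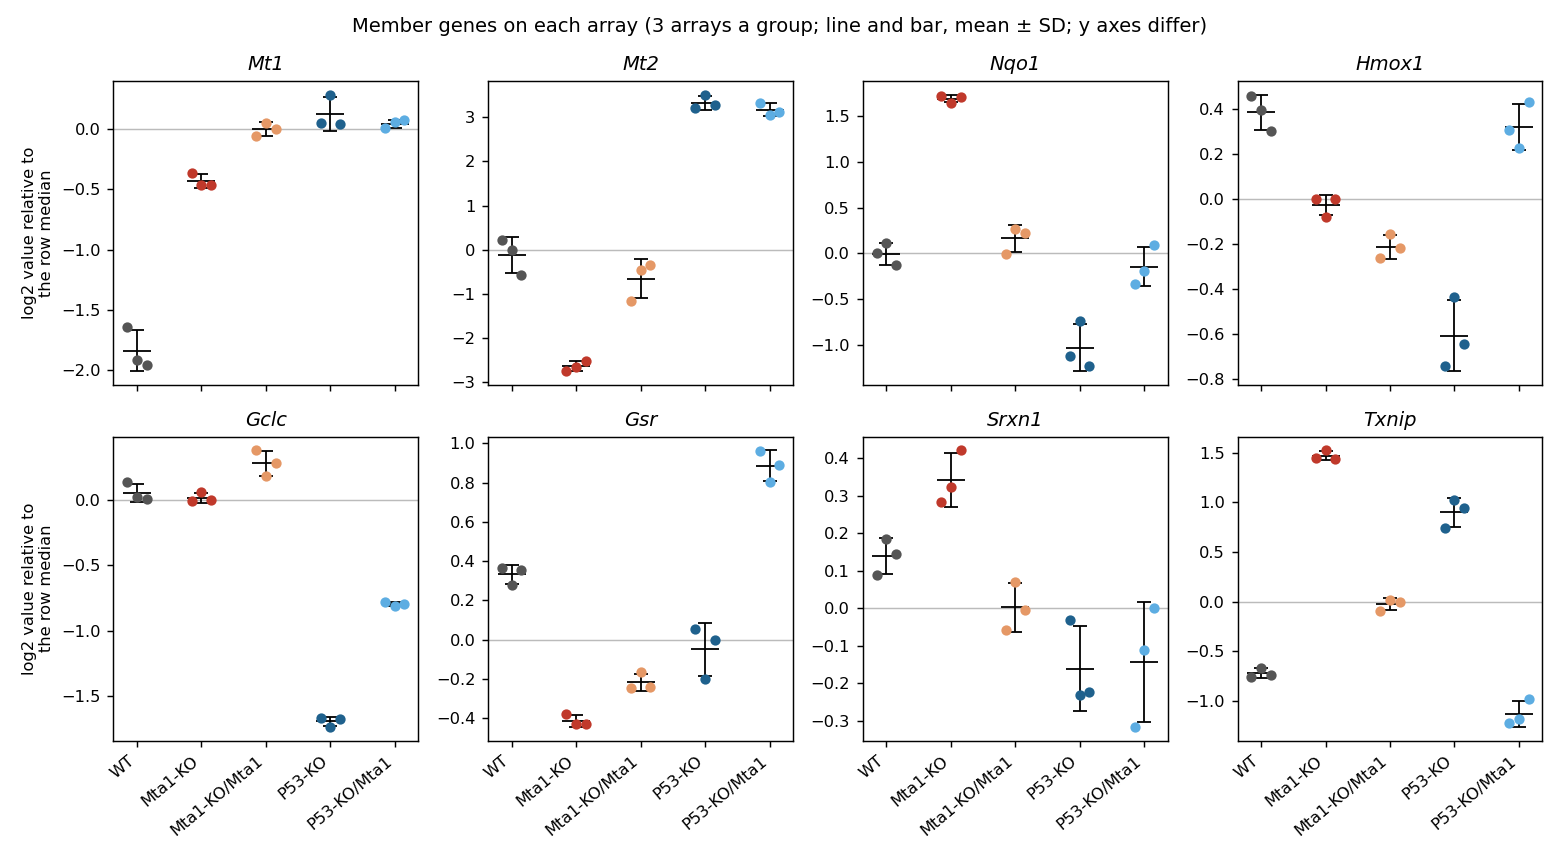
The log2 value of each gene relative to its row median (y axis, a scale of its own in each panel) is plotted for the 3 arrays of each group (points), with the mean and SD (line and bar). Txnip separates all 5 groups, Mt2 spans the widest range, from -2.75 to 3.51, and Srxn1 the narrowest, from -0.32 to 0.42.

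A row was called where the adjusted p was under 0.05 and the fold at least 2. In Mta1-KO against WT, 4 of the 8 genes were called, Mt1, Nqo1 and Txnip higher and Mt2 lower, where 6.64% of all rows were called. The median difference was 0.08 over the 8 genes and 0.03 over all rows. In Mta1-KO/Mta1 against Mta1-KO, 3 of 8 were called, Mt2 higher and Nqo1 and Txnip lower, against 1.11% of all rows, with medians of 0.01 and -0.03. These 2 comparisons share the Mta1-KO arrays, so a value that is extreme in those arrays enters both.

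In P53-KO/Mta1 against P53-KO, 1 of 8 was called, Txnip, against 1.62% of all rows, with medians of 0.45 and -0.02. Without the minimum fold 5 of 8 passed, against 29.9% of rows. Besides Txnip these were Nqo1, Hmox1, Gclc and Gsr, whose differences of 0.89 to 0.93 lay close together and under the minimum fold. Srxn1, the remaining NRF2 target with a row, differed by 0.02. In P53-KO against WT, 5 of 8 were called, Mt1, Mt2 and Txnip higher and Nqo1 and Gclc lower, against 12.1% of rows. In Mta1-KO/Mta1 against WT the sole call was Mt1 (5.74% of rows), and in P53-KO/Mta1 against WT the calls were Mt1 and Mt2 (7.67% of rows). The adjusted p alone was passed by 6 of 8 in Mta1-KO against WT (40.2% of rows), 7 with Mta1 put back (28%), 8 in P53-KO against WT (53.5%), 5 in Mta1-KO/Mta1 against WT (38.5%) and 6 in P53-KO/Mta1 against WT (46.2%).

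**Figure D3:**
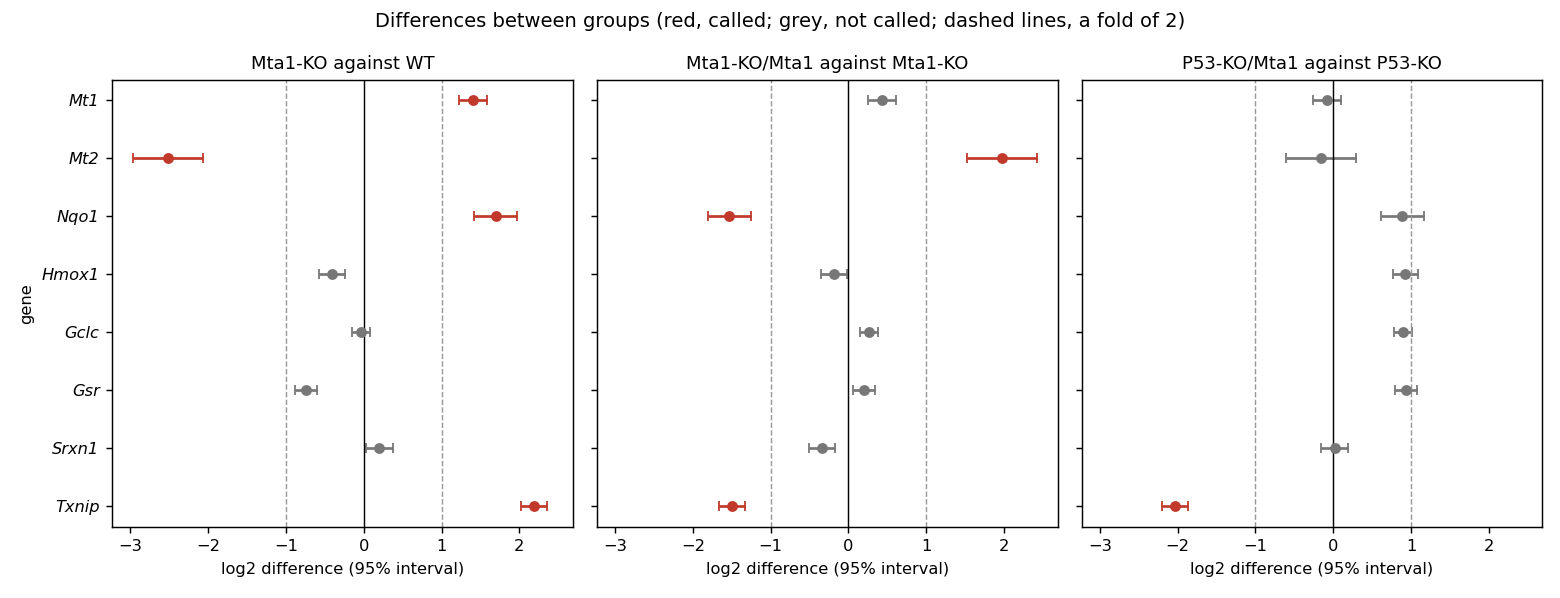
The log2 difference of each gene (x axis) with its 95% interval is plotted for the 3 main comparisons, with dashed lines at a fold of 2 and called genes in red. In the right panel Nqo1, Hmox1, Gclc and Gsr lie between 0.89 and 0.93, and Srxn1 lies at 0.02. Txnip lies beyond -1 in the middle and right panels.

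The response to added Mta1 was compared between the 2 backgrounds as the difference of the log2 changes, which uses separate arrays on each side. It was called in 3 of the 8 genes, against 1.63% of all rows. All 8 passed the adjusted p alone, as did 17.4% of rows. Mt2 responded by 2.13 more in Mta1-KO than in P53-KO MEFs (standard error 0.295, adjusted p = 0.0002, limma), and under quantile normalization this was 0.98 and not called. Nqo1 responded by 2.42 less (difference -2.42, adjusted p = 7.31e-07), since it fell in the first background and was higher in the second. For Hmox1 the difference was -1.11 (adjusted p = 9.85e-06). The other 5 genes had differences between -0.74 (Gsr) and 0.53 (Txnip), under the minimum fold. Txnip was lower with added Mta1 in both backgrounds, with 2.83-fold and 4.09-fold decreases. The embryo age and source of the cells differ between the backgrounds along with P53, so they cannot be told apart here.

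**Figure D4:**
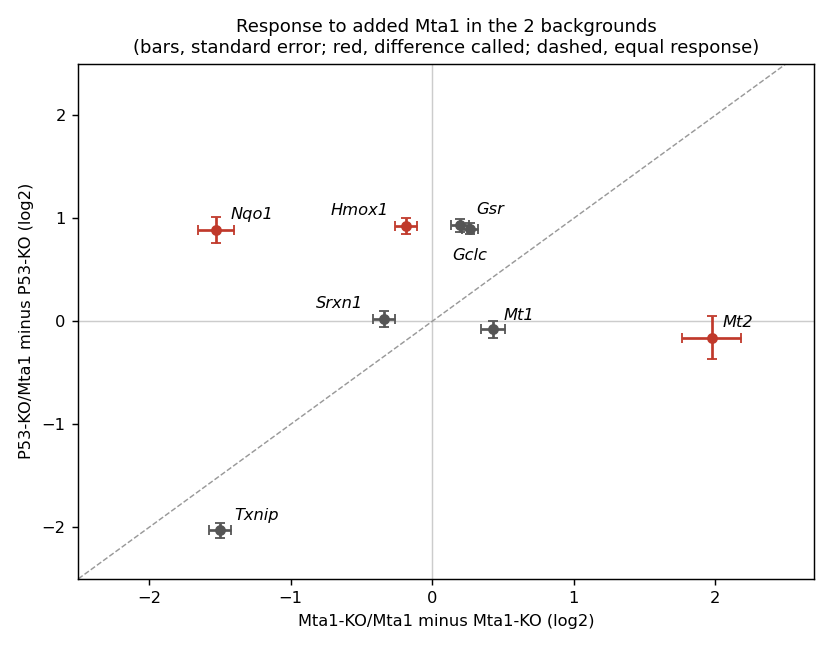
The log2 change with added Mta1 in Mta1-KO MEFs (x axis) is plotted against that in P53-KO MEFs (y axis) for each gene, with standard errors, and genes whose difference was called are red. The dashed line marks an equal response. Txnip is lower with added Mta1 on both axes, at -1.50 and -2.03, while Nqo1 lies at -1.53 and 0.89 and Mt2 at 1.97 and -0.16.

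Related genes were read from 8 lists of 150 genes, of which 123 had a row of their own. In Mta1-KO against WT, 16 of them were called, 12 higher and 4 lower (13%, against 6.64% of all rows). In Mta1-KO/Mta1 against Mta1-KO 5 were called, all lower (4.07%, against 1.11%), and in P53-KO/Mta1 against P53-KO 7, of which 1 was higher and 6 lower (5.69%, against 1.62%). The lists were chosen with earlier results known, so these shares are a description. None of the 12 NRF2 regulators was called by limma in any of the 7 comparisons, where 1.11% to 12.1% of all rows were called. In the 3 main comparisons 8, 7 and 7 of them had an unadjusted p under 0.05. The adjusted p alone was passed by 8, 6 and 6, against 40.2%, 28% and 29.9% of all rows. The methods' t-test called 0 of the 12 in the main comparisons. Nfe2l2, which encodes NRF2 itself, was 0.76 above WT in Mta1-KO (adjusted p = 5e-08) and 0.95 above WT in Mta1-KO/Mta1 (adjusted p = 5.26e-09), with a difference of 0.19 between those 2 groups (adjusted p = 0.0184). Bach2, a repressor, had the largest difference of this list in Mta1-KO against WT, at -0.95 (adjusted p = 5.24e-07), and was called there under quantile normalization (-1.05) and without WT replicate 2 (-1.01). In the other main comparisons it differed by 0.23 and -0.50. Keap1, the inhibitor, differed by 0.22, -0.34 and -0.38 in the 3 main comparisons, and Bach1, a repressor at the same elements, by 0.35, -0.10 and -0.41. The relative Nfe2l1 differed by 0.41, -0.63 and -0.52, the KEAP1-binding autophagy receptor Sqstm1 by 0.61, -0.40 and 0.13 and the ubiquitin ligase scaffold Cul3 by -0.36, 0.38 and 0.40. Differences of the remaining 5, Nfe2, Rbx1 and the small Maf genes Maff, Mafg and Mafk, lay between -0.30 and 0.27. Mtf1, the activator of the metallothioneins, differed by 0.19, 0.20 and 0.08.

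Among 23 other NRF2 targets, 3 were called in Mta1-KO against WT (6.64% of all rows), all higher. Ephx1, an epoxide hydrolase, rose by 3.10 (adjusted p = 3.36e-11), the carboxylesterase Ces1g by 2.61 (adjusted p = 7.9e-13) and Blvrb, a biliverdin reductase, by 1.86 (adjusted p = 1.23e-10). With Mta1 put back, Ces1g fell by 1.50 (adjusted p = 5.26e-09; -0.90 and not called under quantile normalization), Blvrb differed by -0.84 and Ephx1 by -0.26 (adjusted p = 0.126). Ephx1 therefore stayed 2.84 above WT, whereas Nqo1 differed from WT by 0.17. In the P53-KO background Aldh3a1, an aldehyde dehydrogenase, was 3.05 above WT and fell by 1.79 with Mta1 (adjusted p = 1.81e-09), and Ephx1 fell by 1.25 (adjusted p = 2.45e-06), the other direction to Nqo1, Hmox1, Gclc and Gsr. These were the 2 calls of the list in P53-KO/Mta1 against P53-KO (1.62% of all rows). The median of its 23 genes was -0.01 there.

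Of 17 genes of the glutathione system, 3 were called in Mta1-KO against WT, all higher, where 6.64% of all rows were called. Glutaredoxin, Glrx, rose by 1.39, the microsomal transferase Mgst3 by 1.35 and the transferase Gstt1 by 1.15, which under quantile normalization was 0.89 and not called. Gstt1 then fell by 1.88 in Mta1-KO/Mta1 (adjusted p = 6.08e-10) and differed by -0.14 in the P53-KO background. No gene of this list was called there by limma or the methods' t-test, where limma called 1.62% of all rows. An unadjusted p under 0.05 was reached by 7 genes. The adjusted p alone was passed by 6, against 29.9% of all rows. Of 13 genes of the thioredoxin system and of peroxide or superoxide removal, Sesn3, a sestrin, rose by 1.33 in Mta1-KO against WT and fell by 1.08 and 1.53 with added Mta1 in the Mta1-KO and P53-KO backgrounds. The first of these falls was -0.91 and not called under quantile normalization. Sod3, the extracellular superoxide dismutase, rose by 1.20 in Mta1-KO and fell by 1.31 in P53-KO/Mta1 against P53-KO. Prdx2, a peroxiredoxin and thus a thioredoxin substrate, fell by 1.98 in Mta1-KO and was 3.21 below WT in P53-KO (adjusted p = 3.15e-11).

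Of 23 metal handling genes, 4 were called in Mta1-KO against WT, where 6.64% of all rows were called. The metalloreductase Steap4 rose by 3.60 and its relative Steap3 by 1.18, while the zinc and manganese importer Slc39a8 fell by 1.33 and the transferrin receptor Tfrc by 1.02. The call of Tfrc was lost, at -0.99 to -0.98, when replicate 1 or 3 of Mta1-KO or replicate 1 of WT was left out. Steap4 fell by 1.33 in Mta1-KO/Mta1 (adjusted p = 1.55e-07) and by 2.76 in P53-KO/Mta1 (adjusted p = 5.8e-11), from 5.04 above WT in P53-KO. Tfrc rose by 1.29 in P53-KO/Mta1 (adjusted p = 6.23e-07). Among 9 relatives and regulators of Txnip the single call in Mta1-KO against WT was Arrdc4, an arrestin that shares the glucose-sensing factors with Txnip. Arrdc4 rose by 1.63 in Mta1-KO (adjusted p = 3.81e-10), differed by -0.84 with Mta1 put back (adjusted p = 2.6e-06) and fell by 1.61 in P53-KO/Mta1 (adjusted p = 2.99e-09). None of 13 genes of heme turnover was called in these 3 comparisons by limma or the methods' t-test. Limma called 6.64%, 1.11% and 1.62% of all rows there. Of the 13 genes, 9, 7 and 6 had an unadjusted p under 0.05. The adjusted p alone was passed by 8, 5 and 4, against 40.2%, 28% and 29.9% of all rows. Of 13 genes of other stress responses, the chaperone Dnajb1 fell by 1.41 and Ddit3 rose by 1.01 in Mta1-KO (0.98 and not called without WT replicate 3), and Trib3 fell by 1.09 in Mta1-KO/Mta1.

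**Figure D5:**
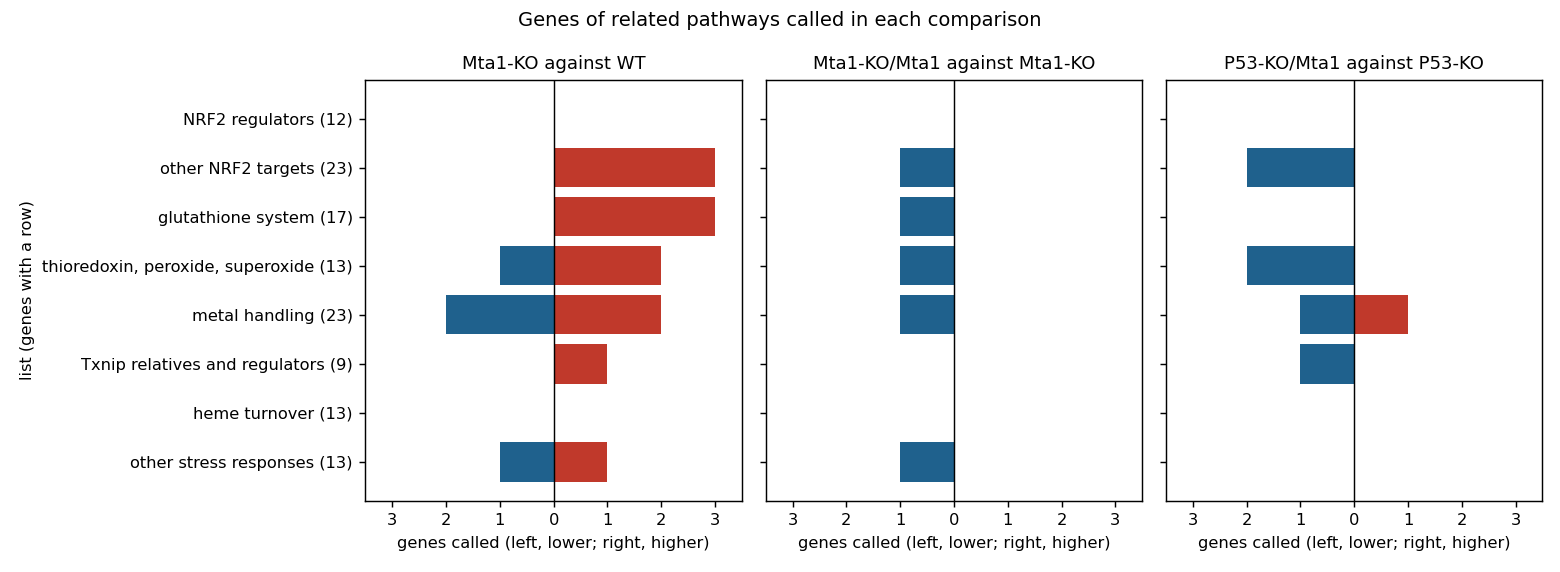
Bars give the number of genes of each list that were called lower (left, blue) or higher (right, red) in the 3 main comparisons (x axis), with the genes that had a row in brackets. Calls in Mta1-KO against WT were mostly higher, and those with added Mta1 mostly lower, except Tfrc in the right panel.

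The rows most like each gene were found by Pearson's r over the 15 arrays, among 2028 single-gene rows with a standard deviation of at least 0.5, as a description in which the 5 groups set most of the likeness. For Mt2 they were Ago1 (0.993), Ube4b (0.984), Ccnl2 (0.983), Arid1a (0.979) and Zswim8 (0.979). Their own differences were smaller, with Ago1 at -0.97 in Mta1-KO against WT and 1.01 in P53-KO against WT. For Nqo1 they were Pla2g7 (0.943), Apip (0.937), Kcna4 (0.936), Sptlc2 (0.920) and P2ry10b (0.918), and for Hmox1 Id1 (0.928), Ggct (0.870), Ddx39a (0.859), Usp38 (0.844) and Cd109 (0.824). For Txnip they were Ccn5 (0.976), Lsp1 (0.966), Aspn (0.963), Clu (0.961) and Arrdc4 (0.956). Aspn, a small matrix proteoglycan, differed by 4.68, -3.35 and -2.49 in the 3 main comparisons.

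Markers of fibroblasts differed between the groups as well. Of 12 such markers 5 were called higher in Mta1-KO than in WT, where 6.64% of all rows were called, among them Thy1 (4.20), Pdgfrb (1.93) and Col1a1 (1.72). The uncalled markers differed by -0.12 (Dpt) to 0.94 (Col3a1), with Fap at 0.02 and Vim at 0.15. The mean of the list per array was -0.87 to -0.71 for WT, 0.27 to 0.29 for the knockout and -0.19 to -0.16 after re-expression. P53-KO MEFs had 0.55 to 0.64, and 0.01 to 0.22 with added Mta1. In P53-KO against WT 7 of the 12 were called higher and 1 lower, S100a4 (-1.22), where 12.1% of all rows were called. With added Mta1 the 1 call was Col3a1, lower in Mta1-KO (-1.47) and in P53-KO MEFs (-1.17), against 1.11% and 1.62% of all rows. Of 9 blood and macrophage markers 2 were called lower in Mta1-KO than in WT, Csf1r (-1.70) and Cd14 (-1.36). Cd53 (0.34, adjusted p = 0.00467) and Tyrobp (0.25, adjusted p = 0.009) differed the other way under the minimum fold, and the median of that list was 0.04. The neural marker Sox2 differed from WT by a 21.9-fold decrease in the knockout (adjusted p = 1.21e-12), the 1 call of 7 neural markers, and rose by 1.21 in P53-KO/Mta1 against P53-KO, where the neural marker Map2 fell by 1.06. Of 5 muscle markers Des (1.29) and Tnnt2 (1.54) were called higher in Mta1-KO, and Des fell by 1.03 with Mta1 put back. Of 7 epithelial markers Krt19 (-1.23) was called. In the same comparison no marker of yolk sac endoderm and liver was called by limma or the methods' t-test (0 of 6, with 0 at an unadjusted p under 0.05), while 0 of 8 endothelial markers were called by limma or the methods' t-test and 1 had an unadjusted p under 0.05. The part of these markers in the results was not tested, and since the centred values hold no level, the presence of a cell type cannot be read from them.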

How the data were processed

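RNA of 5 groups of MEFs was measured on 3 exon arrays each, and samples were grouped by the genotype and Mta1 labels. The values deposited by the authors are normalized log2 ratios made in GeneSpring GX, with the median of every row over the 15 arrays at 0. The probe summary (not given in the sources used here) is unknown, and centring removed the signal level, so no level, background or depth is known and low rows could not be filtered. The number of arrays limits the precision. The table holds 16755 rows, of which 14996 carry 1 gene symbol, 1019 several and 740 none. Symbols were checked by Entrez ID against RefSeq (14941 matched, 0 changed), and where a listed gene had several rows, the row that varied most was taken.

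A model with a mean for each group was fitted to all rows and arrays with limma 3.58.1 in R 4.3.3 (10 residual and 3.46 prior degrees of freedom), with 7 contrasts and Benjamini-Hochberg adjustment over all rows. Calls needed a minimum fold of 2 and an adjusted p below 0.05, as in the study's methods. The script was tested on simulated data. The genes and lists were chosen with earlier results of these data known. Named are each member row, up to 4 called genes per list and main comparison (those with the largest difference), the NRF2 regulators and Mtf1, and for Mt2, Hmox1, Nqo1 and Txnip the 5 most similar rows; the cell type markers named were picked after their values were seen. Other settings tried were leaving out each array, the methods' t-test, quantile normalization, fits on the compared groups alone, array median centring, a block for the replicate number, dropping the minimum fold, and eBayes with robust trend. Quantile normalization was applied to the deposited ratios, which were already normalized and centred by row. It gives every array the same distribution of ratios, so differences between groups in that distribution are removed as well. Permutation tests used scipy 1.17.1 and figures matplotlib 3.10.9.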

Additional observations from a re-analysis of the deposited data

Results flagged for a closer look

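The response to added Mta1 differed between Mta1-KO and P53-KO MEFs, by the test of the difference itself (limma, with the thresholds used for calls), in the members Mt2 (2.13), Nqo1 (-2.42) and Hmox1 (-1.11), given as the log2 response in Mta1-KO MEFs less that in P53-KO MEFs. Mt2 and Nqo1 took their change mostly from the Mta1-KO background, with responses of 1.97 and -1.53, whereas Hmox1 took it from the P53-KO background, with 0.93.

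Among the 123 listed genes with a row the same test called 5, or 4.07%, against 1.63% of all rows. They were Ces1g (-1.16), Aldh3a1 (1.57), Gstt1 (-1.74), Steap4 (1.43) and the catalase gene Cat (-1.05). With added Mta1, Cat differed by -0.70 in Mta1-KO and by 0.35 in P53-KO MEFs, both under the minimum fold. Under quantile normalization Ces1g (-0.60) and Aldh3a1 (0.92) were no longer called, and nor was Mt2 (0.98). Steap4 was called lower with added Mta1 in both backgrounds, by 1.33 and 2.76. The embryo age and source of the cells differ between the backgrounds along with P53 and cannot be told apart from it.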

How the results depend on the processing

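Of the 56 member results (8 genes in 7 comparisons), all kept direction and call with the replicate number as a block, with limma on the compared groups only and with trend and robust settings, and the 48 that the methods' t-test could give did so as well. Same-numbered arrays of compared groups had deviations from their group means that correlated between -0.379 and 0.423. Differently numbered arrays were not compared, so these values do not decide whether replicate numbers pair the arrays. With the replicate block 4, 3, 1, 3, 1, 5 and 2 of 8 members and 16, 5, 7, 5, 13, 19 and 13 of 123 listed genes were called, as without it, in the order knockout against WT, re-expression against knockout, over-expression against P53-KO, the difference of these 2 responses, and then re-expression, P53-KO and over-expression against WT. Without the block 6.64%, 1.11%, 1.62%, 1.63%, 5.74%, 12.1% and 7.67% of all rows were called in that order.

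Without the minimum fold 6, 7, 5, 8, 5, 8 and 6 of the 8 members were called in the same order. Of the 123 listed genes 75, 56, 48, 33, 79, 90 and 81 were called. The shares of all rows were 40.2%, 28%, 29.9%, 17.4%, 38.5%, 53.5% and 46.2%. Quantile normalization called 3 members in P53-KO/Mta1 against P53-KO and 3 listed genes in the difference of responses. It ended the call of Mt1 in Mta1-KO against WT (0.81), of Mt2 in the difference of responses (0.98) and of Nqo1 in P53-KO against WT (-0.80). Among listed genes it ended those of Gstt1 in Mta1-KO against WT (0.89), of Ces1g (-0.90) and Sesn3 (-0.91) with Mta1 put back, and of Ces1g (-0.60) and Aldh3a1 (0.92) in the difference of responses, and it added Bach2 in Mta1-KO against WT (-1.05) and Tfrc with Mta1 put back (1.12). It turned Mt2 in P53-KO/Mta1 against P53-KO to 0.75, Hmox1 in P53-KO/Mta1 against WT to 0.0332 and Ephx1 in Mta1-KO/Mta1 against Mta1-KO to 0.28. The cause was not tested.

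With each array left out in turn, members called ranged from 4 to 4, 3 to 3, 1 to 3, 3 to 3, 1 to 1, 4 to 6 and 2 to 2, and listed genes from 15 to 17, 5 to 5, 7 to 8, 5 to 6, 12 to 13, 17 to 22 and 12 to 14. The 3 members called in P53-KO/Mta1 against P53-KO were reached without P53-KO replicate 2, when Nqo1 (1.03) and Hmox1 (1.02) passed. Uncalled differences near 0 changed sign when an array was left out: Mt1, Srxn1 and Mafg with Mta1 over-expressed in P53-KO MEFs (-0.1201 to 0.0001, -0.0517 to 0.1063 and -0.029 to 0.1699), Gclc and Maff in the knockout (-0.0631 to 0.0006 and -0.0961 to 0.0473), and Mafk and Rbx1 after re-expression (-0.1618 to 0.1613 and -0.1172 to 0.001). The change of Mt2 less that of Mt1 was -3.26 in Mta1-KO against WT and 1.79 in P53-KO against WT under quantile normalization.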
